A study of Rattus norvegicus with 12 samples.

Results

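Amino acid transporter genes were followed in the renal cortex of rats given bromodichloromethane (BDCM), which forms when drinking water is chlorinated, or corn oil. Members were the probes whose RefSeq accession belongs to a gene of the Slc1a, Slc3a, Slc6a, Slc7a, Slc36a, Slc38a or Slc43a families. Genes were taken by symbol, with Slc1a1 to Slc1a7, Slc3a1 and Slc3a2 for the first families and Slc7a11 left out. This gave 59 genes, read by 111 probes, of 15284 named genes on the array. 46 of the 59 cleared background on every array of 1 or more of the groups, by the scanner software's flag, and the other 13 were not tested. One member, Slc7a6os, is not a carrier: it lies on the opposite strand of Slc7a6 and carries the family symbol for that reason. A further 8 symbols of these families, among them the cationic amino acid carrier Slc7a1, had no probe matched by accession and were not analysed here.

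Nearly all amino acids filtered by the kidney are taken back by the proximal tubule. Carriers in the apical brush border bring them into the cell, and exchangers and uniporters in the basolateral membrane pass them on to the blood. Several carriers work as pairs of a heavy chain and a light chain: Slc3a1 pairs with the light chains Slc7a9 and Slc7a13, and Slc3a2 pairs with Slc7a5, Slc7a6, Slc7a7 and Slc7a8. Other family members feed cells with amino acids for growth and protein synthesis, and some of their genes are targets of the transcription factor ATF4, which acts when amino acids are scarce or the endoplasmic reticulum is stressed. Still others carry osmolytes, creatine or neurotransmitters, or work at the lysosome.

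Male Sprague-Dawley (Crl:CD(SD)) rats, bought at 5 weeks of age, formed 4 groups of 3: BDCM with CO2-O2 anaesthesia, corn oil with CO2-O2, BDCM with isoflurane, and corn oil with isoflurane. BDCM was given at 200 mg/kg/day for 4 weeks, and the controls had the vehicle for as long. All animals were bled under the named anaesthetic 24 hours after their last dose, and 1 array was run per animal on cortex RNA, which holds every cell type of that region. The anaesthetics belong to separate experiments, so anaesthetic and experiment cannot be told apart.

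Levels are the log2 of a probe's processed signal over the 75th percentile of its array, so that 0 is the level of that percentile and 1 unit is a doubling. Levels of different probes cannot be set against each other. Summed levels of a marker list, given below, weigh its brightest probes most and compare animals only. Between 41529 and 44714 of 61657 probes were well above background on an array. All 13 proximal tubule markers were above background on all 12 arrays, and all 13 fell with BDCM. Of 6 neuron markers 1 passed the filter. Of 15 hepatocyte markers 9 were above background on every array. The summed level of all 15 (signal over the 75th percentile, not logged) was 32.6 to 39.1 in BDCM and 23.4 to 33.3 in corn-oil animals with CO2-O2. With isoflurane it was 20.9 to 26.0 in BDCM and 18.5 to 20.2 in corn-oil animals. Taken singly, though, 3 of the 15 rose, 4 fell and 8 did not pass in the mean of both experiments, with differences from -4.68 to 2.44. Their part in the results was not tested.

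Promoters of the members were searched on both strands for elements of factors known in amino acid stress and in the proximal tubule. RefSeq windows of 250 bases before to 50 after the start (build GRCr8) were at hand for 45 of the 59 genes, in 49 windows. The CEBP-ATF element through which ATF4 acts was searched as TGATGNAA, an HNF4 site as CAAAGTCCA and an HNF1 site as GTTAATNAT, and no match of one overlapped a match of another in a member. TGATGNAA stood in 3.98% of 33469 windows and in 2 of the 49 windows of members, a share near that of all windows, in Slc1a4 and Slc38a1. CAAAGTCCA stood in 0.391% of windows and in 1 member, Slc3a1, and GTTAATNAT in 0.747% and in 2 members, Slc7a12 and Slc7a15. The bases before the start that hold the matches in Slc1a4, Slc38a1 and Slc3a1 are shown as examples from the carriers of amino acid supply and of reabsorption described below. They do not stand for those carriers as a set. Among the supply carriers called higher with BDCM, only Slc1a4 had a match in the windows at hand, and Slc38a1 was not called. Capitals mark the match, which reads as the reverse complement in Slc1a4 and Slc3a1.
Slc1a4, chr14:98761713-98761812 (minus strand): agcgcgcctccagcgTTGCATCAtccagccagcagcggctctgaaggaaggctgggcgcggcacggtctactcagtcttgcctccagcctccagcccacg
Slc38a1, chr7:129681525-129681554 (minus strand): gggggaaactcTGATGCAAccaaccagtcc
Slc3a1, chr6:15394820-15394849 (minus strand): tcttccttggcTGGACTTTGtccagccagg
The matches begin 235, 142 and 89 bases before the start. A match describes letters only, and binding was not measured.

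BDCM was followed by lower levels of most carriers that reabsorb amino acids and by higher levels of several that supply cells with them. Averaged over both experiments, 9 of the 46 tested members were higher, 16 were lower and 21 missed the threshold (limma, adjusted p under 0.05, Benjamini-Hochberg over 34218 features). Over all features 17.7% rose and 20.4% fell, beside 19.6% and 34.8% of the tested members. The median difference of the tested members was -0.14 on the log2 scale and that of all features -0.04. Members tested were not all members: one high only in the BDCM animals could pass the filter through them. Fits below give the BDCM minus corn oil difference as the mean of both experiments ± SE, with 6 animals per treatment, unless an experiment is named.

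**Figure D1:**
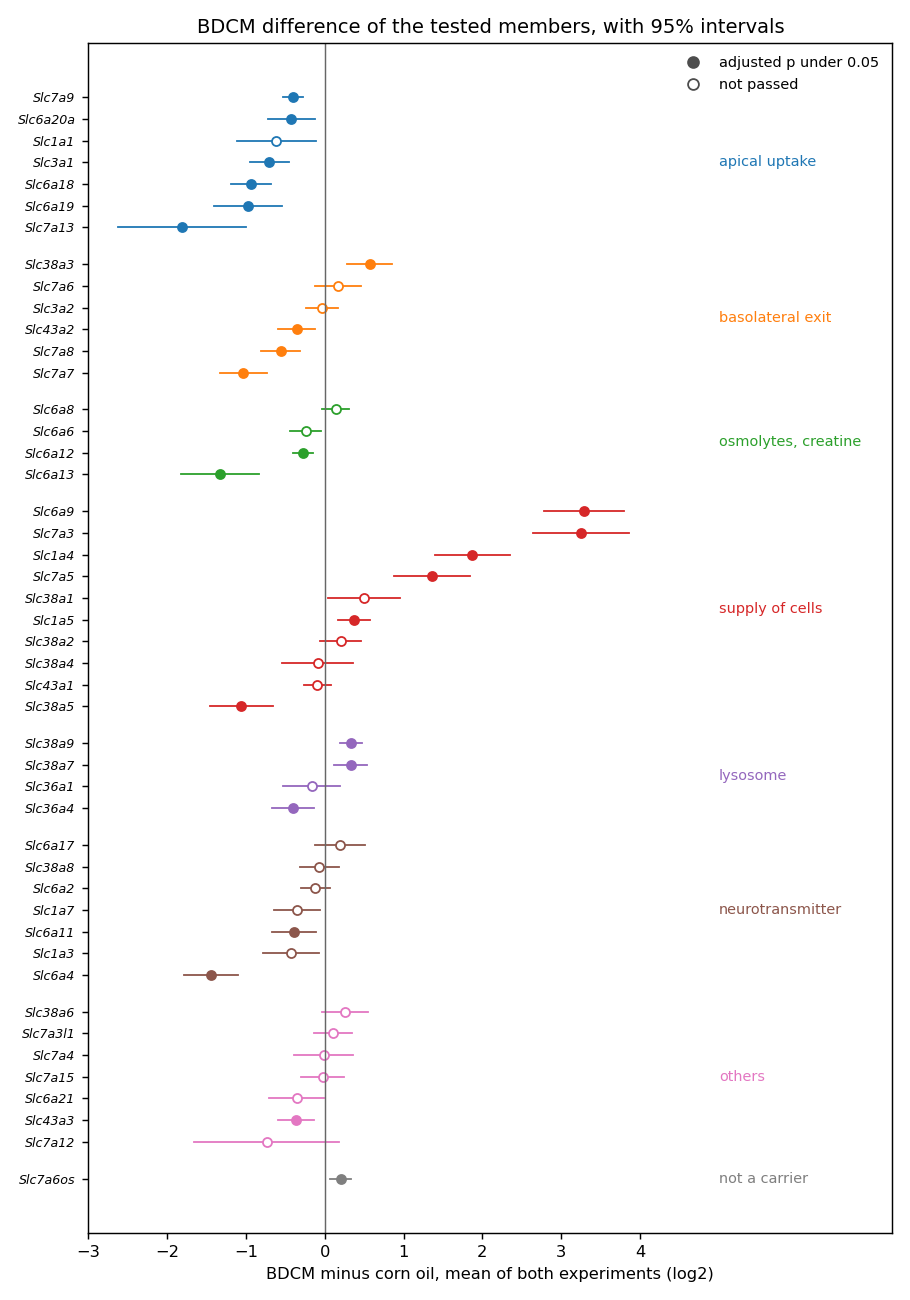
Difference between BDCM and corn-oil animals (log2, mean of both experiments, x axis) for the 46 tested members, grouped by role, with 95% intervals as bars; filled points passed an adjusted p of 0.05. All 7 apical carriers lie below 0, and the 4 rightmost points, Slc6a9, Slc7a3, Slc1a4 and Slc7a5, are carriers of amino acid supply.

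Apical carriers of the brush border were lower with BDCM. Of 8 such members 7 were tested, 6 fell and 0 rose, and the median difference was -0.70. The proximal tubule marker genes fell beside them: their summed level was 1491 to 1934 in BDCM and 2182 to 2679 in corn-oil animals of the CO2-O2 experiment, and 1258 to 1852 in BDCM and 2716 to 2935 in corn-oil animals of the isoflurane experiment. Markers of other cells varied. Of 7 tested collecting duct markers 4 fell and 1 rose, with a median difference of -0.50. Of 6 podocyte markers 4 fell and 0 rose, with a median of -0.41. Falls were 2 of 5 in thick ascending limb (median -0.28), 1 of 2 in distal convoluted tubule (-0.27) and 1 of 3 in inner medulla markers (-0.13). They were 2 of 6 in endothelium (-0.19) and 1 of 8 in leukocyte markers (-0.06), and 0 markers of these 5 lists rose. Summed collecting duct levels were 165 to 227 in BDCM and 247 to 266 in corn-oil animals of the CO2-O2 experiment, and 153 to 219 in BDCM and 242 to 262 in corn-oil animals of the isoflurane experiment. The part of these markers in the falls of the carriers was not tested. In bulk cortex, fewer cells of a type and less RNA per cell cannot be told apart.

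Slc6a19 is the main apical carrier of neutral amino acids and the gene of Hartnup disorder. In the CO2-O2 experiment its log2 level was 2.73, 2.57 and 2.10 in the BDCM animals, against 3.55, 3.22 and 3.42 in the corn-oil animals. In the isoflurane experiment it was 3.10, 1.88 and 2.83 in the BDCM animals, against 3.53, 3.56 and 3.73 in the corn-oil animals. The groups did not overlap in either experiment, and isoflurane BDCM animal 2 was the lowest of all. Slc6a19 fell by 0.97 ± 0.20 (limma, adjusted p = 0.00326), a 1.96-fold lower level. With the slide as a fixed block the difference was -1.04 and its adjusted p 0.0569.

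Slc6a18, a close relative that carries glycine and other neutral amino acids in the rodent brush border, also fell. Levels were 4.29, 3.62 and 3.76 in the BDCM animals, against 4.92, 4.92 and 4.79 in the corn-oil animals of the CO2-O2 experiment. They were 4.03, 3.76 and 3.84 in the BDCM animals, against 4.74, 4.61 and 4.91 in the corn-oil animals of the isoflurane experiment. Groups stood apart in both experiments, and the fall was 0.93 ± 0.11 (adjusted p = 1.64e-04). All 3 tested Slc6a18 probes fell.

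Slc6a20a carries proline and other imino acids. Levels on the log2 scale were 1.50, 1.30 and 1.31 in the BDCM animals, against 1.56, 2.04 and 1.44 in the corn-oil animals with CO2-O2 and 1.40, 0.81 and 1.23 in the BDCM animals, against 1.89, 1.55 and 1.59 in the corn-oil animals with isoflurane. The groups overlapped with CO2-O2 and stood apart with isoflurane. Slc6a20a fell by 0.42 ± 0.13 (adjusted p = 0.0286), and 9 of 27 other settings did not keep this call. Its other tested probe had a difference of -0.33 ± 0.18 that did not pass (adjusted p = 0.177). With the mean of its probes the adjusted p of Slc6a20a was 0.0769, and with no filter on dim features 0.0504. Its adjusted p was 0.0583 without BDCM CO2-O2 animal 2, 0.0587 without BDCM CO2-O2 animal 3, 0.0593 without BDCM isoflurane animal 2, 0.0562 without corn-oil CO2-O2 animal 2 and 0.0667 without corn-oil isoflurane animal 1, and it was 0.193 with the slide and 0.0794 with the scan day as a fixed block.

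Slc3a1, the heavy chain of the cystine and dibasic amino acid carrier, and both of its light chains fell. The log2 level of Slc3a1 was 7.93, 7.43 and 7.31 in the BDCM animals, against 8.23, 8.23 and 8.11 in the corn-oil animals with CO2-O2. It was 7.50, 7.08 and 7.40 in the BDCM animals, against 8.12, 8.16 and 8.02 in the corn-oil animals with isoflurane. BDCM animals lay below all corn-oil animals in both experiments, and the fall was 0.70 ± 0.11 (adjusted p = 8.72e-04).

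The light chain Slc7a9, which with Slc3a1 is affected in cystinuria, was 5.26, 5.27 and 5.22 in the BDCM animals, against 5.68, 5.57 and 5.61 in the corn-oil animals with CO2-O2. With isoflurane it was 5.15, 4.88 and 5.10 in the BDCM animals, against 5.47, 5.52 and 5.46 in the corn-oil animals. These groups were tight and did not overlap, and Slc7a9 fell by 0.40 ± 0.06 (adjusted p = 4.28e-04), a smaller step than that of its heavy chain. The difference between these steps was not tested.

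Slc7a13, a light chain that in mouse carries aspartate, glutamate and cystine late in the proximal tubule, had the largest fall among the 46 tested members. It had a log2 level of 6.50, 4.59 and 4.55 in the BDCM animals, against 7.10, 6.91 and 6.48 in the corn-oil animals with CO2-O2. It was 4.20, 2.84 and 3.99 in the BDCM animals, against 6.06, 5.58 and 5.42 in the corn-oil animals with isoflurane. BDCM CO2-O2 animal 1 lay just above the lowest corn-oil animal, so the groups overlapped there, while those with isoflurane stood apart. Slc7a13 fell by 1.81 ± 0.36, to a 3.51-fold lower level (adjusted p = 0.00324).

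Slc1a1, the apical carrier of glutamate and aspartate, did not pass the test. Levels were 3.00, 1.93 and 2.19 in the BDCM animals, against 3.25, 3.09 and 3.49 in the corn-oil animals with CO2-O2, where the groups stood apart. With isoflurane they were 2.88, 2.22 and 2.82 in the BDCM animals, against 3.53, 2.59 and 2.76 in the corn-oil animals, and the groups overlapped. The difference was -0.61 ± 0.22 (95% interval -1.11 to -0.12, adjusted p = 0.0528), and it passed in 8 of 27 other settings, with an adjusted p of 0.0131 without BDCM CO2-O2 animal 1 and 0.0429 without corn-oil isoflurane animal 2. Slc36a2, the apical proline and glycine carrier, was not above background on any array.

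Most genes of a list of brush border partners, peptidases and peptide carriers also fell. Of 13 tested genes of this list 12 fell and 0 rose. The list also held the peptidase Lap3 and the carrier Slc16a10, which are not particular to the brush border. It shares Pdzk1 with the proximal tubule markers, so the lists are not separate. Earlier results of these data were known when it was chosen. Collectrin (Cltrn), which brings Slc6a19 to the membrane in kidney, fell by 0.96 ± 0.10 (adjusted p = 5.08e-05). The peptidase subunits Mep1a and Mep1b fell by 0.98 ± 0.12 and 1.20 ± 0.24. Of the peptide carriers, Slc15a2 fell by 1.36 ± 0.19 and Slc15a1 by 0.72 ± 0.23.

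Basolateral carriers were mixed: of 6 tested members 3 fell, 1 rose and 2 did not pass. Slc7a7, the light chain that exports dibasic amino acids and is affected in lysinuric protein intolerance, had a log2 level of 1.88, 1.84 and 1.90 in the BDCM animals, against 2.88, 2.39 and 2.81 in the corn-oil animals with CO2-O2. It was 2.04, 1.34 and 1.98 in the BDCM animals, against 2.87, 3.18 and 3.04 in the corn-oil animals with isoflurane. The BDCM values of the CO2-O2 experiment lay within 0.1 of each other and the groups did not overlap in either experiment. Slc7a7 fell by 1.03 ± 0.13 (adjusted p = 2.31e-04).

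Slc7a8, a light chain for neutral amino acids, was 4.41, 4.58 and 4.32 in the BDCM animals, against 4.83, 4.92 and 5.02 in the corn-oil animals with CO2-O2 and 4.48, 3.82 and 4.24 in the BDCM animals, against 4.67, 4.96 and 4.80 in the corn-oil animals with isoflurane. Groups stood apart in both, and the fall was 0.56 ± 0.11 (adjusted p = 0.00282). With the slide as a fixed block the adjusted p of Slc7a8 was 0.0876.

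Slc43a2, a uniporter of large neutral amino acids, was 3.48, 2.95 and 3.29 in the BDCM animals, against 3.51, 3.48 and 3.54 in the corn-oil animals with CO2-O2 and 3.58, 3.13 and 3.56 in the BDCM animals, against 3.89, 3.78 and 3.92 in the corn-oil animals with isoflurane. The groups overlapped with CO2-O2 and stood apart with isoflurane. Slc43a2 fell by 0.35 ± 0.11 (adjusted p = 0.0241), and its adjusted p was 0.0514 without corn-oil CO2-O2 animal 3 and 0.0522 without corn-oil isoflurane animal 3.

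The shared heavy chain Slc3a2 did not pass the test. Its log2 level was 4.57, 4.34 and 4.31 in the BDCM animals, against 4.54, 4.42 and 4.52 in the corn-oil animals with CO2-O2 and 4.80, 4.54 and 4.27 in the BDCM animals, against 4.41, 4.58 and 4.55 in the corn-oil animals with isoflurane. The groups overlapped in both, and the difference was -0.03 ± 0.09 (95% interval -0.23 to 0.17). Among its light chains Slc7a7 and Slc7a8 fell, Slc7a5 rose, and Slc7a6 had a difference of 0.17 ± 0.13 that did not pass. The differences between these genes were not tested.

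Slc38a3 was the basolateral member that rose. It brings glutamine into the tubule cell, where glutamine feeds ammonia formation. Slc38a3 had a log2 level of 0.59, 0.13 and 0.18 in the BDCM animals, against 0.09, 0.02 and -0.34 in the corn-oil animals with CO2-O2. It was 0.44, 0.05 and -0.17 in the BDCM animals, against -0.62, -0.62 and -0.74 in the corn-oil animals with isoflurane. BDCM animals lay above all corn-oil animals in both experiments, and the rise was 0.57 ± 0.13 (adjusted p = 0.00561).

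**Figure D2:**
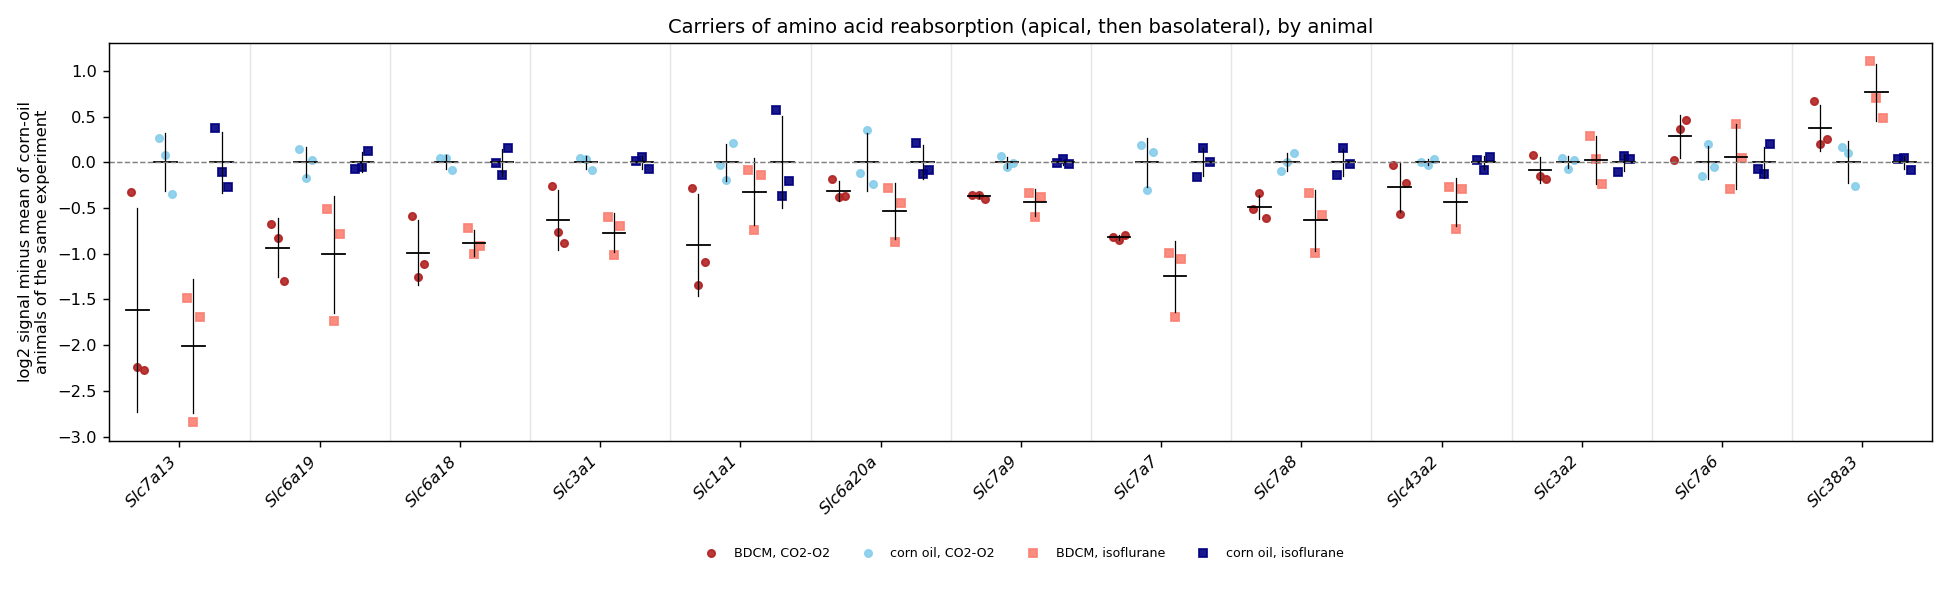
Log2 level of each animal minus the mean of the corn-oil animals of its experiment (y axis) for 7 apical and 6 basolateral carriers; points are animals, long ticks group means and thin lines ± 1 SD (n = 3). BDCM points of Slc6a19, Slc6a18, Slc3a1, Slc7a9, Slc7a7 and Slc7a8 lie below all corn-oil points of their experiment, and those of Slc38a3 above.

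Among carriers of osmolytes and creatine, 2 of 4 fell and 2 did not pass. Slc6a13, which in mouse carries GABA and taurine in kidney and liver, had a log2 level of 1.20, 0.70 and 0.44 in the BDCM animals, against 2.30, 2.17 and 2.47 in the corn-oil animals with CO2-O2. It was 1.86, 0.47 and 0.77 in the BDCM animals, against 2.09, 2.13 and 2.25 in the corn-oil animals with isoflurane. Groups did not overlap, and isoflurane BDCM animal 1 stayed close to its controls. Slc6a13 fell by 1.33 ± 0.22, to a 2.51-fold lower level (adjusted p = 0.00109).

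The betaine carrier Slc6a12 fell by 0.28 ± 0.06 (adjusted p = 0.00316), or by 0.17 with normexp, with groups apart in both experiments. The other tested probe of Slc6a12 had a difference of -0.41 ± 0.18 that did not pass (adjusted p = 0.0960). That probe differed by -0.83 with CO2-O2 and by 0.003 with isoflurane. The taurine carrier Slc6a6 was 0.35, -2.92e-04 and 0.19 in the BDCM animals, against 0.63, 0.34 and 0.34 in the corn-oil animals with CO2-O2 and 0.03, 0.21 and 0.38 in the BDCM animals, against 0.39, 0.52 and 0.39 in the corn-oil animals with isoflurane. The groups overlapped with CO2-O2 and stood just apart with isoflurane, and its difference of -0.24 ± 0.09 did not pass (adjusted p = 0.0516). It passed in 7 other settings, with an adjusted p of 0.0191 with the scan day as a fixed block, 0.0300 without BDCM CO2-O2 animal 1 and 0.0322 without BDCM isoflurane animal 3. The creatine carrier Slc6a8 was 6.66, 6.97 and 6.62 in the BDCM animals, against 6.62, 6.55 and 6.71 in the corn-oil animals with CO2-O2 and 6.85, 6.70 and 6.74 in the BDCM animals, against 6.48, 6.67 and 6.67 in the corn-oil animals with isoflurane. The groups again overlapped with CO2-O2 and stood just apart with isoflurane. The difference of 0.14 ± 0.08 did not pass (adjusted p = 0.180), whereas the other tested probe rose by 0.50 ± 0.09 (adjusted p = 0.00144), so the probes of Slc6a8 disagree. With the mean of its probes Slc6a8 passed at 0.32 (adjusted p = 0.00672), and with the scan day as a fixed block at 0.26 (adjusted p = 0.0365).

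Carriers that supply cells with amino acids held the largest rises. Of 14 such members 10 were tested: 5 rose, 1 fell and 4 did not pass, with a median difference of 0.43. Slc6a9, a glycine carrier, rose most of the tested members. Its log2 level was -0.71, -0.46 and -0.63 in the BDCM animals, against -3.48, -4.06 and -3.42 in the corn-oil animals with CO2-O2. It was 0.10, 1.00 and -0.57 in the BDCM animals, against -3.39, -3.42 and -3.25 in the corn-oil animals with isoflurane. Groups were more than 2 log2 units apart in both experiments. Slc6a9 rose by 3.29 ± 0.23, 9.79-fold (95% interval 6.87 to 13.9, adjusted p = 3.36e-06), and all 3 tested probes of Slc6a9 rose, by 2.72 to 3.29.

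Slc7a3, a carrier of arginine and lysine, was well above background on all 6 BDCM arrays and on 0 of 6 corn-oil arrays, so it was tested only because it was high with BDCM. Its measured log2 level was -3.60, -3.79 and -3.55 in the BDCM animals, against -6.99, -6.48 and -7.10 in the corn-oil animals with CO2-O2. It was -3.17, -2.64 and -4.01 in the BDCM animals, against -5.75, -7.05 and -6.88 in the corn-oil animals with isoflurane. Since the corn-oil values are only bounds, set by the lowest signal that counted as above background, Slc7a3 was at least 6.76-fold higher with CO2-O2 and at least 6.40-fold higher with isoflurane (limma on the measured values, adjusted p = 1.06e-05 for the mean). Both tested probes of Slc7a3 rose. The second probe was also above background on only 6 arrays. Its means were -3.66 and -3.40 in BDCM and -8.17 and -7.43 in corn-oil animals (CO2-O2, then isoflurane). It too could pass the filter only where it was high, so its rise is not a separate test.

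Slc1a4, the alanine, serine and cysteine carrier, had a log2 level of -3.40, -4.09 and -3.98 in the BDCM animals, against -4.95, -5.09 and -5.77 in the corn-oil animals with CO2-O2. It was -3.56, -2.85 and -3.98 in the BDCM animals, against -5.68, -5.67 and -5.93 in the corn-oil animals with isoflurane. Groups stood apart in both experiments, and 1 of 3 corn-oil arrays with isoflurane was above background. On the measured values Slc1a4 rose by 1.87 ± 0.21 (adjusted p = 1.08e-04), and no fold is given with isoflurane. With CO2-O2, where all arrays were above background, it was 2.72-fold higher (95% interval 1.70 to 4.35).

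Slc7a5, the light chain for leucine and other large neutral amino acids, was -3.77, -3.23 and -3.64 in the BDCM animals, against -4.50, -4.91 and -4.48 in the corn-oil animals with CO2-O2. It was -4.23, -3.19 and -4.52 in the BDCM animals, against -5.78, -5.73 and -5.33 in the corn-oil animals with isoflurane. Groups did not overlap, and again 1 of 3 corn-oil arrays with isoflurane was above background. On the measured values Slc7a5 rose by 1.36 ± 0.22 (adjusted p = 8.64e-04). With CO2-O2, where all arrays were above background, it was 2.12-fold higher (95% interval 1.32 to 3.39). With normexp background correction, which lifts dim signals, the mean differences of both experiments were 0.84 for Slc1a4, 0.59 for Slc7a5 and 1.18 for Slc7a3, and all 3 still passed. The filter was the same in that setting, so Slc7a3 was again tested only because it was high with BDCM.

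Slc1a5, a neutral amino acid and glutamine exchanger, was 1.74, 2.16 and 1.56 in the BDCM animals, against 1.31, 1.48 and 1.39 in the corn-oil animals with CO2-O2 and 1.90, 1.98 and 2.02 in the BDCM animals, against 1.70, 1.59 and 1.68 in the corn-oil animals with isoflurane. BDCM animals lay above all corn-oil animals in both experiments. Slc1a5 rose by 0.37 ± 0.09 (adjusted p = 0.0107). The other tested probe of Slc1a5 had a difference of 0.27 ± 0.11 that did not pass (adjusted p = 0.0729).

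The sodium-coupled carriers of small neutral amino acids, Slc38a1, Slc38a2 and Slc38a4, did not pass the test. Slc38a1 was -3.69, -4.01 and -3.85 in the BDCM animals, against -4.53, -4.41 and -4.59 in the corn-oil animals with CO2-O2, where groups stood apart. With isoflurane it was -4.19, -2.94 and -4.33 in the BDCM animals, against -4.19, -4.16 and -4.10 in the corn-oil animals, and only BDCM animal 2 exceeded the controls by more than 1 unit. The difference of Slc38a1, 0.49 ± 0.21, did not pass (adjusted p = 0.0831); without BDCM isoflurane animal 2 the difference was smaller, 0.27, with an adjusted p of 0.0158, and without BDCM isoflurane animal 3 it was 0.62, with an adjusted p of 0.0322.

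Slc38a2, the amino acid-regulated member of that set, was 1.89, 1.77 and 1.72 in the BDCM animals, against 1.68, 1.93 and 1.73 in the corn-oil animals with CO2-O2 and 2.11, 2.53 and 1.76 in the BDCM animals, against 1.82, 1.69 and 1.74 in the corn-oil animals with isoflurane. The groups overlapped in both, and the difference of 0.20 ± 0.12 did not pass (adjusted p = 0.199, and 0.0299 without BDCM isoflurane animal 3). Slc38a4 and the uniporter Slc43a1, which did not pass either, had differences of -0.09 and -0.10, and Slc43a1 passed with the scan day as a fixed block, at -0.24 (adjusted p = 0.0349). Slc38a5, a glutamine carrier, was the member of this group that fell. Its log2 level was -3.08, -3.93 and -3.21 in the BDCM animals, against -2.78, -2.54 and -2.87 in the corn-oil animals with CO2-O2 and -3.79, -4.66 and -4.39 in the BDCM animals, against -2.64, -2.89 and -2.99 in the corn-oil animals with isoflurane. Groups stood apart in both experiments, and Slc38a5 fell by 1.06 ± 0.18 (adjusted p = 0.00125), or by 0.66 with normexp.

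**Figure D3:**
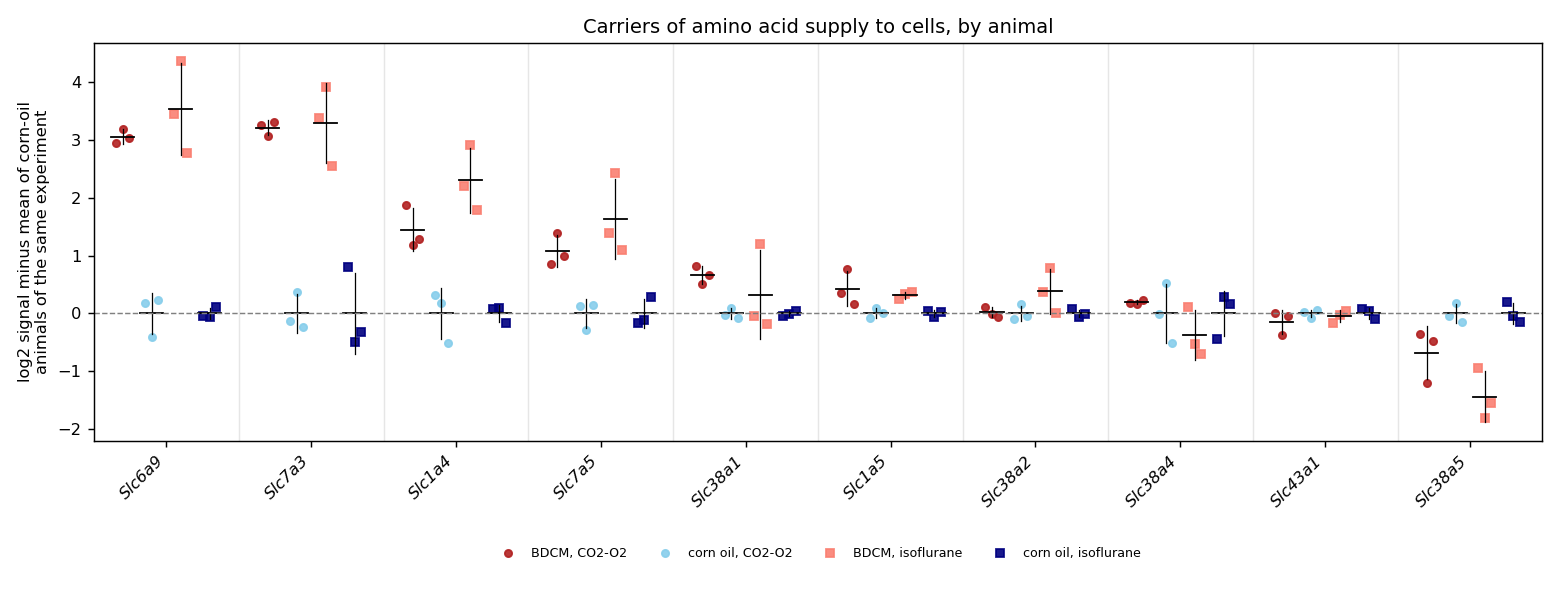
Log2 level of each animal minus the mean of the corn-oil animals of its experiment (y axis) for the 10 tested carriers of amino acid supply; points are animals, long ticks group means and thin lines ± 1 SD (n = 3). All BDCM points of Slc6a9, Slc7a3, Slc1a4 and Slc7a5 lie above the corn-oil points, and BDCM isoflurane animal 2 is the highest point of each.

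Genes of the amino acid response driven by ATF4 rose beside these carriers. Of 24 tested genes of that list 17 rose, 2 fell and 5 did not pass, and earlier results of these data were known when it was chosen. Asns, which makes asparagine, rose by 4.01 ± 0.14, the proline synthesis gene Pycr1 by 6.36 ± 0.20, Trib3 by 4.44 ± 0.47 and the mitochondrial folate gene Mthfd2 by 2.62 ± 0.24. Atf4 itself rose by 0.63 ± 0.15 (adjusted p = 0.00976). The serine synthesis gene Psat1 and Ddit4 fell, by 0.53 ± 0.10 and 0.83 ± 0.18.

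At the lysosome, 2 of 4 members rose, 1 fell and 1 did not pass. Slc38a9, which senses arginine for the growth regulator mTORC1, rose by 0.33 ± 0.06 (adjusted p = 0.00254), with groups apart in both experiments. Slc38a7, which exports glutamine, rose by 0.33 ± 0.09 (adjusted p = 0.0196), and its adjusted p was 0.0680 with the scan day and 0.0564 with the slide as a fixed block, and 0.0802 without both isoflurane animals with the highest Alb signal. Slc36a4, a proline and tryptophan carrier, fell by 0.40 ± 0.12 (adjusted p = 0.0233, and 0.0571 without corn-oil CO2-O2 animal 3 or 0.0547 without corn-oil isoflurane animal 2). Slc36a1, a proton-coupled carrier of small amino acids, was -3.19, -3.87 and -3.21 in the BDCM animals, against -3.14, -3.41 and -3.02 in the corn-oil animals with CO2-O2 and -2.91, -3.48 and -3.01 in the BDCM animals, against -3.17, -3.25 and -2.71 in the corn-oil animals with isoflurane. Groups overlapped in both, and its difference of -0.16 ± 0.16 did not pass (95% interval -0.52 to 0.19). With the slide as a fixed block Slc36a1 passed at -0.59 (adjusted p = 0.0454). Among 17 tested genes of lysosomal amino acid sensing 2 rose, 4 fell and 11 did not pass. The arginine sensor Castor1 fell by 0.70 ± 0.10, and Rptor, the mTORC1 subunit, rose by 0.28 ± 0.06.

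Of 14 carriers known from neurons, most of them for neurotransmitters, 7 were tested, 2 fell and 5 did not pass. Slc6a4, the serotonin carrier, had a log2 level of -4.48, -4.69 and -4.47 in the BDCM animals, against -3.35, -3.30 and -3.27 in the corn-oil animals with CO2-O2. It was -4.31, -4.91 and -4.33 in the BDCM animals, against -2.69, -3.38 and -2.53 in the corn-oil animals with isoflurane. Groups did not overlap in either experiment. Slc6a4 fell by 1.44 ± 0.15, to a 2.72-fold lower level (adjusted p = 6.45e-05), by 0.85 with normexp, and its other tested probe fell too. The GABA carrier Slc6a11 fell by 0.39 ± 0.12 (adjusted p = 0.0316), and 8 of 27 other settings did not keep this call. Its adjusted p was 0.0740 without BDCM isoflurane animal 2, 0.0543 without BDCM isoflurane animal 3, 0.0689 without corn-oil CO2-O2 animal 1, 0.0599 without corn-oil CO2-O2 animal 3, 0.0726 without corn-oil isoflurane animal 1 and 0.0607 without corn-oil isoflurane animal 3. The glutamate carriers Slc1a3 and Slc1a7 had differences of -0.43 ± 0.16 and -0.36 ± 0.13 that did not pass (adjusted p = 0.0579 and 0.0549). Without BDCM CO2-O2 animal 3 the adjusted p of Slc1a3 was 0.0345, without BDCM isoflurane animal 3 it was 0.00872, and that of Slc1a7 was 0.00191 without BDCM CO2-O2 animal 1. With the scan day as a fixed block both passed (adjusted p = 0.0212 and 0.0210). Slc6a2, Slc6a17 and Slc38a8 did not pass, with differences of -0.12, 0.19 and -0.07.

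Of 7 other tested carriers, Slc43a3, a purine nucleobase carrier in human cells, fell by 0.36 ± 0.10 (adjusted p = 0.0168) and 6 did not pass. The adjusted p of Slc43a3 was 0.0699 with the mean of its probes and 0.0642 without both isoflurane animals with the highest Alb signal, and its other tested probe had a difference of -0.15 that did not pass (adjusted p = 0.406). The kidney carrier Slc7a12 varied most among the corn-oil animals. On the log2 scale it was 1.53, -0.63 and -0.89 in the BDCM animals, against 1.68, 0.78 and 0.23 in the corn-oil animals with CO2-O2 and -0.62, -1.60 and -1.14 in the BDCM animals, against -0.30, -0.74 and -0.59 in the corn-oil animals with isoflurane. The groups overlapped in both, and its difference of -0.74 ± 0.42 did not pass (adjusted p = 0.190, and 0.00956 without BDCM CO2-O2 animal 1). Slc38a6 had a difference of 0.26 ± 0.13 that did not pass, whereas 2 of its 4 tested probes rose, by 0.39 and 0.36 (adjusted p = 0.0222 and 0.00423), and all 4 had a positive difference. With the mean of its probes Slc38a6 passed at 0.31 (adjusted p = 0.00395), and with the slide as a fixed block at 0.40 (adjusted p = 0.0377). Slc6a21 had a difference of -0.36 ± 0.16 that did not pass, and it passed with the slide or the scan day as a fixed block, at -0.53 and -0.60 (adjusted p = 0.0292 and 0.00661). Slc7a15, Slc7a4 and Slc7a3l1 had differences between -0.02 and 0.10 that did not pass. Slc7a6os rose by 0.20 ± 0.06 (adjusted p = 0.0229, and 0.0537 without corn-oil CO2-O2 animal 1 or 0.0511 without corn-oil isoflurane animal 2). The other tested probe of Slc7a6os had a difference of -0.16 that did not pass, and with the mean of its probes the difference was 0.07 (adjusted p = 0.573).

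The question whether BDCM acted alike in both experiments was put to each member. With CO2-O2, 5 members rose and 9 fell, beside 10% and 9.89% of all features. With isoflurane, 7 rose and 13 fell, beside 13.2% and 12.9%. Of the 25 members called in the mean, 25 had the same sign in both experiments, as had 40 of all 46. The 25 were called on the average of both differences, so their shared sign describes them and tests nothing. The share of all features with the same sign in both was not counted. Members called in both experiments with groups that did not overlap in either were Slc6a9, Slc7a3, Slc1a4 and Slc7a5 on the higher side. These 4 of 46 tested members are a share near the 8.50% of all features, and Slc7a3 passed the filter only through the BDCM arrays. On the lower side they were Slc6a4, Slc6a13, Slc7a7, Slc6a19, Slc6a18, Slc3a1 and Slc7a9, 7 of the 46 beside 6.85%. Counted by groups alone, 7 members lay above and 10 below their controls without overlap in both experiments, beside 13.5% and 13.1%.

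A difference of the BDCM effect between experiments passed the test in 0 of 34218 features (limma), and 1731 features, 5.06%, had an unadjusted p under 0.05. Among the members 3 did so. The isoflurane minus CO2-O2 difference of effects was -0.62 for Slc43a3, -0.60 for Slc6a11 and 0.80 for Slc6a21, each with an adjusted p of 0.935. The 95% interval for Slc6a21 ran from 0.10 to 1.50. The counts with CO2-O2 depended on single animals: 3 members rose without corn-oil animal 1, 2 or 3 in turn, and the number that fell was 4 without corn-oil animal 1, 5 without corn-oil animal 3 and 5 without BDCM animal 2. With isoflurane 8 fell without corn-oil animal 1.

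**Figure D4:**
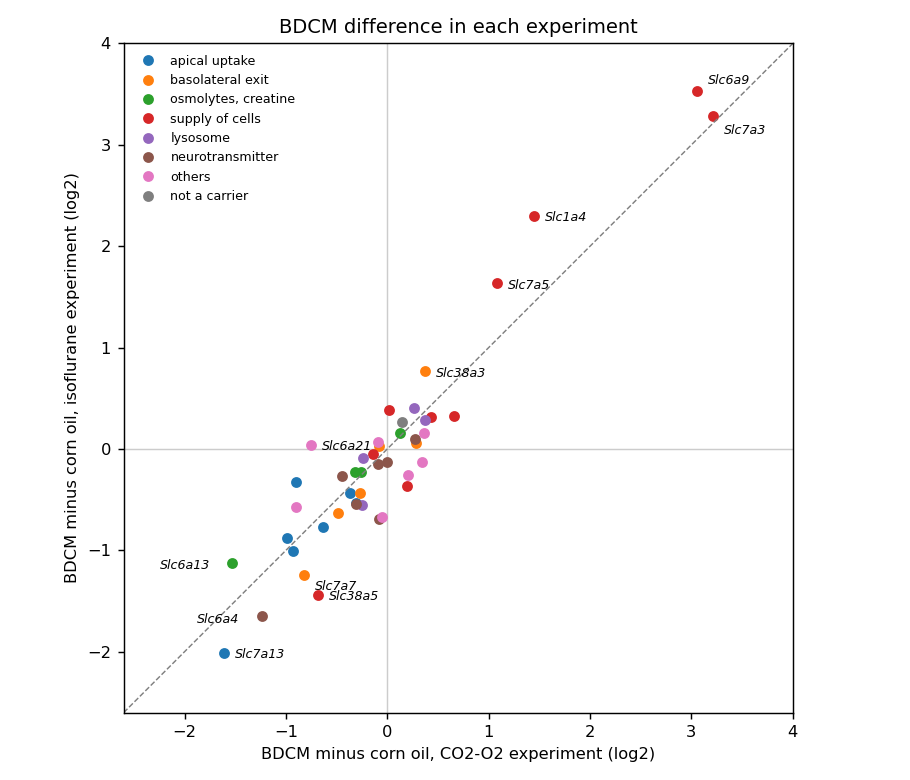
BDCM minus corn oil difference (log2) of the 46 tested members in the isoflurane experiment (y axis) against the CO2-O2 experiment (x axis), coloured by role; the dashed line marks equal differences. Slc6a9, Slc7a3, Slc1a4 and Slc7a5 lie at the upper right and Slc7a13, Slc6a4, Slc6a13 and Slc7a7 at the lower left.

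Between the corn-oil groups 2 members were called, both higher with isoflurane, beside 7.53% of all features. Slc6a12 differed by 0.35 ± 0.08 (isoflurane minus CO2-O2, adjusted p = 0.0200). Its log2 level was -2.07, -2.15 and -2.07 in corn-oil animals with isoflurane, against -2.40, -2.49 and -2.45 in corn-oil animals with CO2-O2. The other tested probe of Slc6a12 went the other way, with corn-oil means of -4.73 with isoflurane and -4.38 with CO2-O2. With the mean of its probes the difference of Slc6a12 was -6.52e-05 and did not pass. Slc7a15, a carrier-like gene of the light chain family, was -4.74, -4.27 and -4.46 with isoflurane, against -5.19, -5.41 and -4.95 with CO2-O2 (difference 0.69 ± 0.17, adjusted p = 0.0311). Groups of both genes stood apart, yet neither call was kept in all settings. Without corn-oil CO2-O2 animal 1 or 2, or corn-oil isoflurane animal 3, 0 members were called; the count was 1 without corn-oil CO2-O2 animal 3 and without corn-oil isoflurane animal 1 or 2, 4 without BDCM CO2-O2 animal 1 and without BDCM isoflurane animal 1, and 5 without BDCM isoflurane animal 2.

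Between the BDCM groups 5 members were called, 2 higher and 3 lower with isoflurane, beside 11.8% and 5.25% of all features. Slc6a12 was higher again, by 0.44 ± 0.08 (adjusted p = 0.00611), and Slc6a21 by 0.85 ± 0.22 (adjusted p = 0.0279). The call of Slc6a21 was kept in 15 of 23 other settings: with normexp its difference was 0.12 (adjusted p = 0.424), with the mean of its probes 0.51 (adjusted p = 0.152), and the adjusted p was 0.0752 without BDCM isoflurane animal 1 and 0.0709 without BDCM isoflurane animal 2. Slc38a4, known as a liver glutamine and alanine carrier, differed by -1.10 ± 0.29 (adjusted p = 0.0282), and 5 single left-out animals ended that call, with adjusted p up to 0.0797. Of 15 hepatocyte markers 6 were lower in the same comparison, and their part in it was not tested. Slc38a5, also lower, differed by -0.87 ± 0.25 (adjusted p = 0.0419), a call kept in 11 of 24 other settings. Leaving out any 1 animal other than BDCM CO2-O2 animal 2 and BDCM isoflurane animal 1 ended it, with adjusted p up to 0.122, and with the mean of its probes the adjusted p was 0.195. Slc43a3 differed by -0.59 ± 0.14, and its adjusted p was 0.0614 without BDCM CO2-O2 animal 1 and 0.0628 without BDCM isoflurane animal 1. The count was 3 without BDCM CO2-O2 animal 3 and without BDCM isoflurane animal 1.

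BDCM animals differed among themselves in how far the carriers moved. BDCM isoflurane animal 2 was the lowest of its group in 9 of the 9 reabsorption carriers called lower and the highest in 4 of the 5 supply carriers called higher. Its median difference from the corn-oil mean over those 9 was -0.998, against -0.697 in animal 3 and -0.510 in animal 1. Its summed proximal tubule marker level was 1258, against 1638 in animal 3 and 1852 in animal 1, and its Atf4 level was 5.76, against 4.84 and 4.79. Atf4 levels of the CO2-O2 animals are not given here. In the CO2-O2 experiment BDCM animal 1 was the highest of its group in 6 of the 9, with a median difference of -0.36, against -0.76 in animal 2 and -0.80 in animal 3. Its marker level was 1934, against 1491 and 1517. Over the 5 supply carriers called higher, though, animal 1 had the largest median difference, 1.87, against 1.40 in animal 2 and 1.29 in animal 3. It was the highest of its group in 1 of these 5, and animal 2 in 3. These orders describe 3 animals a group, and the part of the marker level or of Atf4 in them was not tested.

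Arrays came from several slides and were scanned on several days, none of which held both experiments. Treatment was not balanced over them. Slide 2, scanned on day 2, held only BDCM CO2-O2 animals 1 and 3, and slide 3 only corn-oil isoflurane animals 1 and 2. BDCM isoflurane animal 3 was alone on slide 5 and scan day 4. Within slide 1 (1 BDCM and 3 corn-oil arrays), slide 4 (2 and 1) and scan day 3 (2 and 3), the batches that held both treatments, 25 of 25 called members had the sign of their mean difference. These members were called on the same arrays, so this describes the batches and tests nothing. Of 24 members with more than 1 tested probe, 21 had the same sign in every probe and 3 did not, and 0 had probes called in both directions.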

How the data were processed

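RNA of the renal cortex of 12 rats was hybridised to 12 Agilent 1-colour arrays. The deposited intensity values come from Agilent Feature Extraction 10.7.1.1, per the file headers (10.7 per the submitters' processing notes), which subtracts background and detrends each array. The deposited value table holds ratio values, signal over the array's 75th percentile, as found by setting it against the scanner intensities. Its columns matched the animal's own array in 6 isoflurane animals and another animal of the same group in 6 CO2-O2 animals, so it served only as an alternative. Its column medians were 0.0999 to 0.112.

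Levels were log2 of the processed signal over the 75th percentile of each array (1079.53 to 1476.46 before scaling). Outlier spots, 1319 control spots and 84 spike-in probes were left out. Each named gene was read by its probe of highest mean signal, named through RefSeq accessions (GRCr8), and unnamed probes stood for themselves. A feature was tested where all 3 arrays of any group had it well above background, which left 34218 features. The model, in limma 3.58.1 (R 4.3.3), had 1 mean per group over all 12 arrays, and p-values were adjusted by Benjamini-Hochberg over all features tested, with a threshold of 0.05. The fit was also run on simulated data with independent noise and without slide or scan day effects. That run does not cover the uneven batches of these arrays. A bound on a fold change sets the group above background against the lowest signal well above background on each other array, or the probe's own signal where higher. Between 0 and 6 probes were saturated on an array, and the number of arrays limits the precision.

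Animals were grouped by their labels. Replicate numbers did not pair them: same-numbered animals deviated together with correlations of -0.02 to 0.05. Values of every animal are given for members called in both experiments with groups apart in each, for those called between the corn-oil groups, and for carriers known in renal handling or supply of amino acids, with Slc38a5 and Slc7a12 added after their values were seen. Members and lists were chosen with earlier results of these data known. Alternatives were other scalings, normexp background correction, other filters, other uses of probes, the value table, an intensity trend, array weights, slide, scan day or replicate number as a block, only the groups compared, and each animal left out in turn. A setting without the isoflurane animal of each treatment with the highest Alb signal, BDCM animal 1 and corn-oil animal 3, was added after seeing the data. Some genes are not reported by name here.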

Additional observations from a re-analysis of the deposited data

How the results depend on the processing

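Over all alternatives that could be fitted, 16 of the 25 calls in the mean difference were kept throughout, 4 of 14 with CO2-O2 and 6 of 20 with isoflurane, and 0 of these calls changed direction. The mean gave 9 members higher and 16 lower, 8 to 11 and 13 to 20 with 1 animal left out, and 6 and 20 with the filter on all 12 arrays, under which Slc7a3, Slc1a4 and Slc7a5 were not tested. No scaling moved the median of all features by more than 0.05. With CO2-O2 (5 higher, 9 lower), the higher count was 3 with no filter or with the slide as a fixed block, 2 with the filter on all 12 arrays, 8 with array weights or with every probe as a feature, and 3 to 6 with 1 animal left out. The lower count was 4 with the slide and 5 with the scan day as a fixed block, and 4 to 13 with 1 animal left out. With isoflurane (7 higher, 13 lower), the higher count was 4 with the filter on all 12 arrays, 3 with the slide as a fixed block and 6 to 8 with 1 animal left out, and the lower count was 4 with the slide and 8 to 14 with 1 animal left out. The difference of effects had 0 calls throughout. Between the corn-oil groups (2 called) the count was 1 with normexp or no filter, 4 with the filter on all 12 arrays or an intensity trend, 8 with array weights, 0 without both isoflurane animals highest in Alb, and 0 to 5 with 1 animal left out. Between the BDCM groups (5 called) it was 2 with no filter, 3 with array weights, 3 without both animals highest in Alb, and 3 to 6 with 1 animal left out. The cause of these changes was not tested. Between the corn-oil groups Slc6a12 had a difference of -6.52e-05 with the mean of its probes. Between the BDCM groups Slc38a1 had a difference that did not pass and ran from -0.41 to 0.28 with 1 animal left out. It passed without BDCM isoflurane animal 2, at -0.41 (limma, adjusted p = 0.0361). With the replicate number as a block, which does not pair these animals, the mean gave 8 higher and 20 lower and CO2-O2 gave 3 higher. Contrasts between experiments could not be fitted with slide, scan day or replicate number as a fixed block. Only the groups compared were fitted within experiments alone. Weak signals limit what was measured: 8 of the 59 members were above background on no array.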

Other observations

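The 13 members that were not tested were above background on at most 2 arrays. Slc6a5, a glycine carrier of neurons, Slc6a7, a proline carrier of brain, and Slc7a14 were above background on 1 array each, and Slc7a10 and Slc7a2, a carrier of arginine and lysine, on 2. The remaining 8 were above background on 0 of 12 arrays, among them the glutamate carriers Slc1a2 and Slc1a6, the dopamine carrier Slc6a3, and Slc6a14, Slc6a15, Slc36a2 and Slc36a3.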
